A study of Mus musculus with 4 samples.

Results

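Heat shock chaperones and their cochaperones were followed in mouse microvascular smooth muscle cells as a set of 10 genes, Hspa8, Hsp90aa1, Hspb1, Hspb8, Cryab, Bag3, Hsph1, Dnajb1, Hspd1 and Hspe1. Every non-control probe whose accession belongs to 1 of these genes in a RefSeq table was taken, without regard to its signal. The 10 genes, of 18217 with a probe, took 14 of the 41174 probes on the array, 2 each for Hspa8, Cryab, Dnajb1 and Hspd1 and 1 each for the other 6 genes. Each of the 14 exceeded background clearly on all 4 arrays in either channel, so none was lost to the filter on dim probes, which left 23497 probes for testing.

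Chaperones bind unfolded stretches of other proteins, keep them from clumping and hand them on for folding or destruction. The cytosolic HSP70 and HSP90 machines work with cochaperones that deliver clients, exchange nucleotide and steer clients to degradation, while the small heat shock proteins hold clients without using ATP, and the HSP60 and HSP10 chaperonin folds proteins inside mitochondria. Heat shock factor 1 drives many of these genes under stress by binding repeats of the unit GAA and its complement TTC, and in muscle the small heat shock proteins and Bag3 are known for protecting actin-anchoring structures under load.

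The cells were labelled as derived from Rap1a knockout mice, male and of the strain C57BL6, with the age not given in the sources used here. Rap1a encodes a Ras-like small GTPase, and the labels give its knockout to both arms. In the control arm the cells were transduced with an empty Shuttle vector, in the other with a Shuttle vector named RapCA, a name the labels do not spell out. Virus was applied overnight without serum, and RNA was taken after 48 h of recovery in 0.5% FBS, following growth in 10% FBS. Each of 4 two-colour arrays carried 1 RNA of each arm, always with the empty vector in Cy5 and RapCA in Cy3, so dye and arm cannot be told apart. The labels call the arrays biological replicates but do not say whether they were separate cultures or animals, so p-values measure only the spread between these arrays, which may be technical. Ratios below are log2 of Cy3 over Cy5, so a positive value stands for the RapCA label being brighter, and ± is the SD over 4 arrays. The RNA is of whole cultures, in which fewer cells of a type and less RNA per cell cannot be told apart.

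The single Rap1a probe was well above background on all 4 arrays in both channels, at log2 levels of 11.52 to 11.87 under the RapCA label and 12.03 to 13.18 under the vector label, although both arms are labelled knockout. It gave log2 ratios of -0.46, -1.02, -1.31 and -1.47 on replicates 1 to 4 (limma adjusted p = 0.00204), less signal under the RapCA label, which goes against that label if the vector carries Rap1a. Which part of the gene was deleted is not given in the sources used here and the probe was not placed, so it may check nothing. Every direction below follows the dye labels. Of 8 smooth muscle markers, 7 were above background on all arrays in each channel; Des was not, and Myh11 was only just above it. Markers of other cell types were mixed. No probe of Pecam1, Cdh5, Ptprc or Epcam was above background on any array. The endothelial Vwf and Kdr and the immune Cd3e and Csf1r each had a probe above it on all 4 arrays under either label. Endothelial Tek cleared it on all 4 under the RapCA label and on 2 under the vector label. Epithelial Krt8 cleared it on all 4 under the vector label only. Replicate 1 stood apart: the correlation of its ratios with another array, over the tested probes, was 0.686 to 0.778, against 0.931 to 0.976 among the other 3, and its median net Cy5 signal was 37 against 75.5 to 83.5. Probes are not independent replicates. For the members, results whose call turns on replicate 1 are given with and without it.

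Promoter sequences are shown for 5 of the genes to set genes with a heat shock motif, all lower at their brightest probe, beside Bag3, which was higher. They are RefSeq sequences of the build GRCm38.p6. The set of promoters used here holds 7 of the 10 members. Hspa8, Hsp90aa1 and Cryab are not in it and are not shown. Capitals mark the 2-unit heat shock motifs GAANNTTC and TTCNNGAA, each of which reads the same on both strands, and overlapping matches are joined. Hspd1 and Hspe1, which encode the mitochondrial chaperonin HSP60 and its lid HSP10, lie head to head, and the first sequence is the whole 215 bases between a start of Hspd1 and the start of Hspe1, chr1:55087933-55088147, on the + strand. The others are the 250 bases before a start, 5′ to 3′ on the gene's strand, from chr5:135887669-135887918 (Hspb1, +), chr5:149636337-149636586 (Hsph1, -) and chr7:128523333-128523582 (Bag3, +).
Hspd1 and Hspe1: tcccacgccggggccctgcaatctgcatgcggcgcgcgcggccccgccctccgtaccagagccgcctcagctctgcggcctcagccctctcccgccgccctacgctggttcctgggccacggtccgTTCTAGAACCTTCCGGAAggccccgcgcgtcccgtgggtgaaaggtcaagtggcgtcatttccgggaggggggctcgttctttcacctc
Hspb1: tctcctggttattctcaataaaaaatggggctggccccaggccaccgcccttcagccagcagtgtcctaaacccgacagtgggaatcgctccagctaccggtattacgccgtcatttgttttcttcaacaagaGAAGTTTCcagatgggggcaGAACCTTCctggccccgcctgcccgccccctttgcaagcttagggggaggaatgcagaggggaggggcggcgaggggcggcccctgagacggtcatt
Hsph1: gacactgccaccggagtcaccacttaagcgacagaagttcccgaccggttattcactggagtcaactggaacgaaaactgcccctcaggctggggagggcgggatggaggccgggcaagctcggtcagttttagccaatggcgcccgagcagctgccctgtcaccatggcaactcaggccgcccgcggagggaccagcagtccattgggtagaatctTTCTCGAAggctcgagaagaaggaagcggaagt
Bag3: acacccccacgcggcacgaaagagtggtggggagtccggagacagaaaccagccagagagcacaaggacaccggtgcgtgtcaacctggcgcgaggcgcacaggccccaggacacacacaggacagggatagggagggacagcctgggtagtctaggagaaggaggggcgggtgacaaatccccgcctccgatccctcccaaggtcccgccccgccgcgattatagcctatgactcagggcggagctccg
The stretch shared by Hspd1 and Hspe1 holds 3 overlapping matches, which make up 2 overlapping 3-unit motifs, each a GAANNTTC and a TTCNNGAA that share 1 unit; the nearer begins 84 bases before the Hspe1 start. A 3-unit motif, in either order, is in 0.466% of 32851 promoter windows of the same 250 bases. Hspb1 holds 2 GAANNTTC matches, beginning 117 and 97 bases before its start, and Hsph1 holds 1 TTCNNGAA match, 33 bases before. GAANNTTC is in 6.69% of all windows, TTCNNGAA in 7.17% and either in 12.8%. The Bag3 window holds no match. Nor do those of Hspb8, which fell, of Dnajb1, which fell at 1 of its 2 probes, and of the other Hspd1 start. This says only that these letters are not in these windows, and a link between motif and direction was not tested. A match is a description of the letters, not a site in use.

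Of the called chaperone genes, Hsp90aa1, Hsph1, Hspb1, Hspb8, Hspe1, Hspd1 and Dnajb1 fell at a probe, while Bag3 and Cryab rose. Of the 14 probes, 7 fell, 3 rose and 4 did not pass a Benjamini-Hochberg adjusted p of 0.05 in limma, the adjustment running over all 23497 tested probes. The 10 called make 71.4% of the member probes, against 49.6% of all tested probes. The 7 that fell make 50%, against 23.2% of all probes, and the 3 that rose make 21.4%, against 26.4%. The median log2 ratio was -0.48 over the 14 probes and 0.01 over all tested probes. At 10 of the 14 probes the ratio had the same sign on every array, against 60% of all tested probes.

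**Figure D1:**
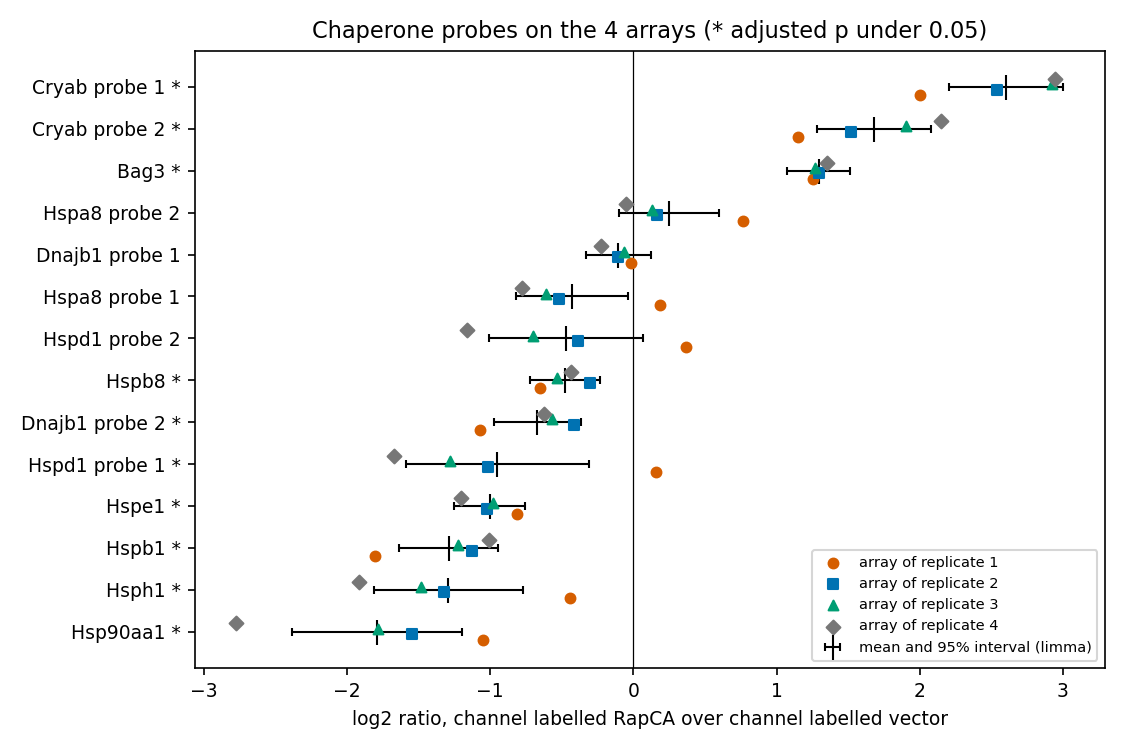
Log2 ratios (x axis, channel labelled RapCA over channel labelled vector) of the 14 chaperone probes on each of the 4 arrays, with the mean and limma's unadjusted 95% interval as bars; an asterisk marks an adjusted p under 0.05. The 4 Bag3 points lie between 1.26 and 1.35, whereas those of Hspd1 probe 1 run from -1.67 to 0.16, with replicate 1 alone above 0.

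Cytosolic HSP90 was represented by Hsp90aa1, the stress-inducible form, and had the lowest ratio of the members. Its normalized log2 level was 15.02, 16.26, 16.14 and 16.31 on replicates 1 to 4 in the channel labelled vector and 13.96, 14.71, 14.36 and 13.54 in the channel labelled RapCA. The channels did not overlap. The log2 ratios were -1.05, -1.55, -1.78 and -2.77, a mean of -1.79 ± 0.72 or 3.46-fold lower (limma adjusted p = 0.00115). The ratio of replicate 4 was the farthest from 0, and the level of replicate 1 in the channel labelled vector was the lowest of the 4.

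Hsph1 encodes HSP110, which exchanges the nucleotide of HSP70 and helps it to dissolve aggregates. Its log2 level was 13.81, 15.14, 15.22 and 15.29 in the channel labelled vector and 13.37, 13.82, 13.73 and 13.37 in the other. The channels overlapped, since replicate 1 of the first lay just below replicate 2 of the second. On each array the ratio was below 0, at -0.44, -1.32, -1.49 and -1.92, with a mean of -1.29 ± 0.62 (limma adjusted p = 0.00276). As for Hsp90aa1, replicate 1 had the smallest difference and a low level in the channel labelled vector.

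The main cytosolic HSP70, Hspa8, was measured by 2 probes that disagree in sign. The first (A_51_P170371), the brighter, gave log2 ratios of 0.19, -0.52, -0.61 and -0.78, a mean of -0.43 ± 0.43 (limma adjusted p = 0.0657). The second (A_52_P12877) gave 0.77, 0.16, 0.13 and -0.05, a mean of 0.25 ± 0.36 (adjusted p = 0.200). Neither passed. The second lay above the first by 0.58 to 0.74 on every array, a gap of 0.68 ± 0.07, for which the exact two-sided sign-flip test over 4 arrays gives p = 0.125, the smallest it can give. Without replicate 1 the first probe passed, at -0.64 (adjusted p = 0.000582), and it passed with median centring as well, at -1.12 (adjusted p = 0.0302). Hspa8, Hspd1 and Hspe1 have processed gene copies that may share a probe, and probes were not placed on transcripts here.

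Dnajb1 encodes the J-domain protein HSP40, which brings clients to HSP70 and starts its ATP cycle. Its brighter probe (A_51_P153486) had log2 ratios of -0.02, -0.11, -0.07 and -0.22, a mean of -0.10 ± 0.09 (limma adjusted p = 0.404), with a 95% interval from -0.33 to 0.12. The second probe (A_52_P171663) fell, at -1.07, -0.42, -0.57 and -0.63, a mean of -0.67 ± 0.28 (adjusted p = 0.00457). The second probe was below the first on all arrays, by 0.31 to 1.05, so the gene has no single ratio here.

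**Figure D2:**
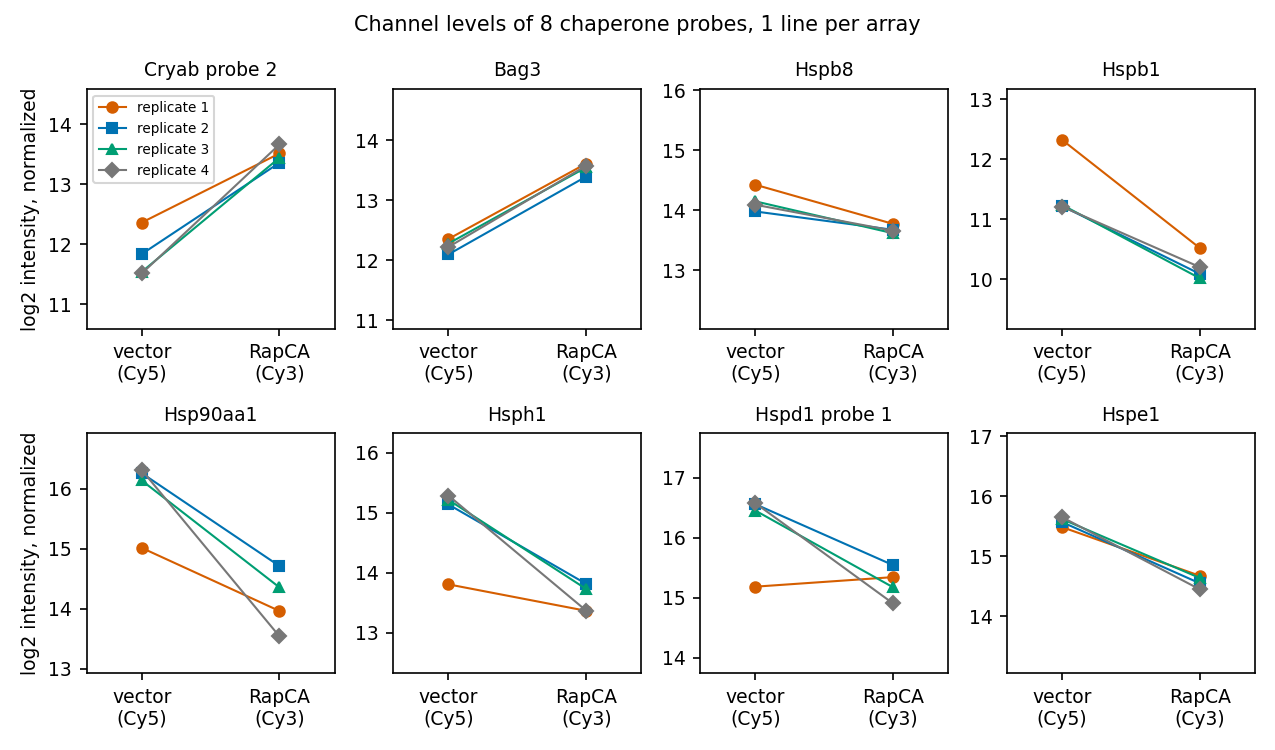
Normalized log2 intensity (y axis, a span of 4 in every panel) of 8 chaperone probes in the channel labelled vector and the channel labelled RapCA, 1 line per array. Lines rise for Cryab and Bag3 and fall on all arrays for Hspb8, Hspb1, Hsp90aa1, Hsph1 and Hspe1; for Hsp90aa1, Hsph1 and Hspd1 replicate 1 has the lowest level in the channel labelled vector.

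The small heat shock proteins went in both directions. Cryab, which encodes alphaB-crystallin, a holdase of lens and muscle, rose at both probes. Its dimmer probe (A_51_P504423) had log2 levels of 9.40, 8.46, 8.29 and 8.38 in the channel labelled vector and 11.40, 10.99, 11.21 and 11.33 in the channel labelled RapCA, without overlap. Its log2 ratios were 2.01, 2.54, 2.92 and 2.95, a mean of 2.60 ± 0.44 or 6.08-fold (limma adjusted p = 5.41e-05). The brighter probe (A_52_P106482) gave 1.15, 1.52, 1.90 and 2.15, a mean of 1.68 ± 0.44 (adjusted p = 0.000277). The probes differed by 0.80 to 1.02 on each array, so the size of the rise depends on the probe and its direction does not.

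Hspb1 encodes HSP27, a small heat shock protein that also binds actin filaments, and fell. Its log2 level was 12.32, 11.22, 11.24 and 11.21 in the channel labelled vector and 10.52, 10.09, 10.02 and 10.20 in the channel labelled RapCA, without overlap. Replicate 1 was above the other arrays in the first. The log2 ratios were -1.80, -1.13, -1.22 and -1.01, a mean of -1.29 ± 0.35 (limma adjusted p = 0.000454). Within an array the brighter Cryab probe and Hspb1 were 2.65 to 3.16 log2 units apart in ratio.

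Hspb8 encodes HSP22, the small heat shock protein that Bag3 holds in a complex with HSP70 to clear damaged proteins, and Bag3 is the scaffold of that complex. The pair went opposite ways. Bag3 had log2 levels of 12.36, 12.10, 12.28 and 12.22 in the channel labelled vector and 13.61, 13.40, 13.55 and 13.58 in the channel labelled RapCA. Its log2 ratios of 1.26, 1.30, 1.27 and 1.35 gave a mean of 1.29 ± 0.04 or 2.45-fold (limma adjusted p = 7.42e-05). That SD compares with a median of 0.25 over all tested probes. Hspb8 fell by less, at log2 ratios of -0.65, -0.31, -0.53 and -0.43, a mean of -0.48 ± 0.15 (adjusted p = 0.00748), and did not pass without replicate 3 (adjusted p = 0.0562). The Bag3 ratio exceeded the Hspb8 ratio by 1.60 to 1.91 log2 units on every array.

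The mitochondrial chaperonin genes, whose shared promoter stretch is printed above, were both lower at their brightest probes but differed in steadiness. Hspe1 had log2 levels of 15.48, 15.57, 15.62 and 15.65 in the channel labelled vector and 14.67, 14.55, 14.64 and 14.45 in the channel labelled RapCA. Its log2 ratios were -0.81, -1.02, -0.98 and -1.20, a mean of -1.004 ± 0.16 (limma adjusted p = 0.000333), and the channels did not overlap. The brighter Hspd1 probe (A_51_P282706) had 0.16, -1.02, -1.28 and -1.67, a mean of -0.95 ± 0.79 (adjusted p = 0.0234). Replicate 1 was the exception, and its level in the channel labelled vector was 15.19 against 16.46 to 16.58 on the others.

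The second Hspd1 probe (A_52_P1172972) did not pass, at log2 ratios of 0.37, -0.38, -0.70 and -1.16, a mean of -0.47 ± 0.64 (limma adjusted p = 0.127). Without replicate 1 it did, at -0.75 (adjusted p = 0.00378). The first Hspd1 probe no longer passed without replicate 2, 3 or 4 (adjusted p = 0.0668, 0.0742 and 0.0967), nor with no filter on dim probes (0.0647). The ratio of Hspd1 minus that of Hspe1 was 0.97 on replicate 1, 0.00 on replicate 2, -0.30 on replicate 3 and -0.47 on replicate 4, and the gap of 0.05 ± 0.64 had p = 0.875 in the exact two-sided sign-flip test.

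The 14 probes lay from the 60.0th to the 99.0th percentile of mean intensity among tested probes, and their ratios moved with the normalization. Loess fits each array's ratio as a curve of intensity, and median centring subtracts a single value. With median centring the median over all probes moved from 0.01 to -0.14, and the median over the 14 chaperone probes from -0.48 to -0.92. Bag3 and Cryab remained higher, at 0.96 ± 0.36 for Bag3 and 2.44 ± 0.16 and 1.36 ± 0.27 for the Cryab probes. The called probes were then 8 lower and 3 higher, against 16.7% of all probes lower and 11.2% higher. The second Hspa8 probe changed sign, to -0.28 ± 0.66 (limma adjusted p = 0.478), and Dnajb1 at its brighter probe moved to -0.60 ± 0.36 (adjusted p = 0.0534).

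**Figure D3:**
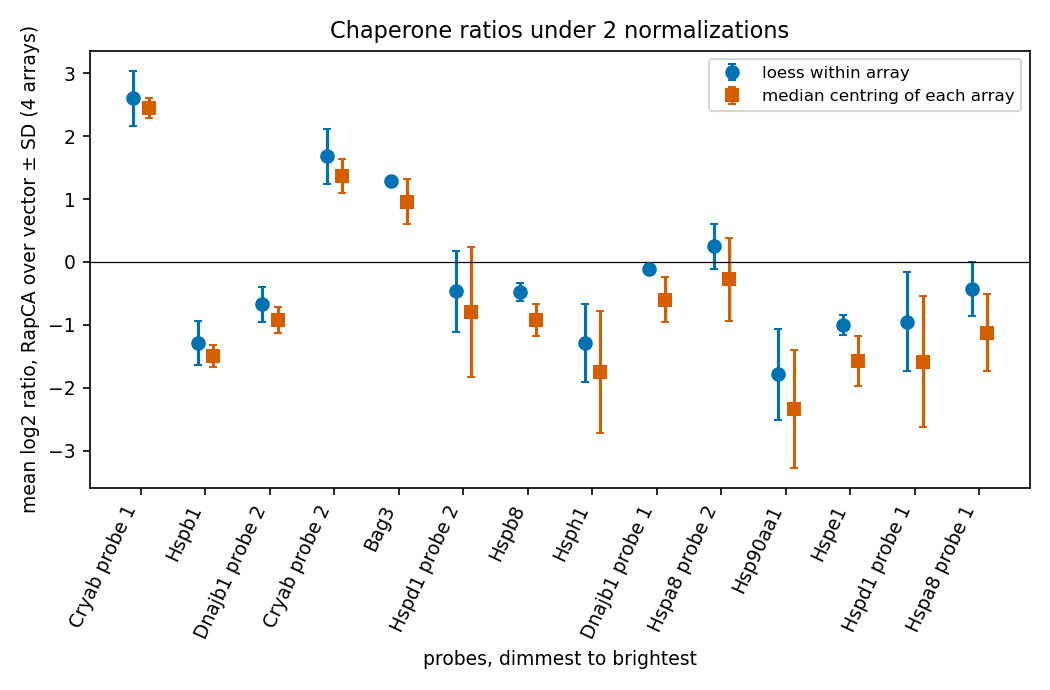
Mean log2 ratio ± SD over 4 arrays (y axis) of the 14 chaperone probes after loess (circles) and after median centring (squares), ordered from the dimmest to the brightest probe. All 14 means are lower with median centring, and Bag3 and both Cryab probes stay above 0.

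Other genes of the folding machinery were read from 10 lists of 88 genes, of which 80 had a tested probe; the brightest probe of each gene is used. Of these 80, 17 rose (21.2%, against 28.9% of 12388 tested genes) and 19 fell (23.8%, against 24.9%), so 45% were called where 53.9% of all genes were. Their median log2 ratio was -0.07, against 0.02 over all genes and -0.72 over the 10 members. By the same brightest probes 8 of the 10 members were called, 6 lower and 2 higher. The number of other genes lower was 31 without replicate 1, 10 without replicate 2 and 8 without replicate 3. Calls over all tested probes also moved with the array left out, as given further below. With median centring 17 of the 80 were lower and 8 higher, beside 2476 and 1542 of the 12388 tested genes.

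The counts of each list below are to be read beside 28.9% of all tested genes higher and 24.9% lower. Among HSP70 and HSP110 chaperones 2 of 11 rose and 4 fell. Hspa4l, an HSP110 relative of Hsph1, was lowest at a log2 ratio of -1.40 ± 0.52 (limma adjusted p = 0.00102), and Hspa4, another HSP110, was at -0.83 ± 0.42. Dimmer Hspa4 probes were at -0.66 ± 0.34 (limma adjusted p = 0.00801) and -0.38 ± 0.43 (0.0978). Hspa12b, a distant HSP70 relative known from blood vessels, rose at 1.83 ± 0.34 (adjusted p = 0.000103) and Hspa2 at 0.90 ± 0.14. With median centring the brightest probes had a limma adjusted p of 0.0661 for Hspa4 and 0.0604 for Hspa2. The dimmer Hspa2 probe, at 1.12 with loess, passed at 0.99 (adjusted p = 0.0166). Of 15 HSP90 partners and relatives tested, 2 rose and 3 fell, with the phosphatase Ppp5c at 0.74 ± 0.22 at 1 probe and -0.11 ± 0.22 at a slightly dimmer one (limma adjusted p = 0.470), the HSP90-binding Chordc1 at -0.77 ± 0.42 and the cyclophilin Ppid at -0.60 ± 0.54. Cdc37, which brings kinases to HSP90 and is named after its values were seen, fell at its brighter probe, at -0.35, and rose at the other, at 0.51 (adjusted p = 0.0190 and 0.0117). With median centring neither Chordc1 (adjusted p = 0.0761) nor Ppid (0.0896) passed, and Ppid was lost without replicate 2, 3 or 4. With loess the dimmer Ppid probe did not pass, at -0.31 ± 0.44 (limma adjusted p = 0.172), and the dimmer Chordc1 probe did, at -0.62 ± 0.38 (0.0133).

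Of the J-domain proteins 5 of 16 were higher and 5 lower, beside 28.9% and 24.9% of all tested genes. Dnajc3, an inhibitor of stress kinases in the endoplasmic reticulum, was at -1.62 ± 0.47 (limma adjusted p = 0.000393) and Dnajc2, a ribosome-bound cochaperone, at -1.24 ± 0.40 (adjusted p = 0.000748). Dnajb2 and Dnajc8 were higher at 0.83 ± 0.33 and 0.76 ± 0.26, Dnajc8 not with median centring (adjusted p = 0.290). Of the other small heat shock proteins 3 of 7 could be tested and 1 rose: Hspb2, at 1.46 ± 0.57 (adjusted p = 0.00118). Hspb2 lies within the annotated span of Cryab, and since its probes were not placed, signal of the neighbours may not be separable. Its dimmer probe was not well above background on any array in the channel labelled vector.

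The cytosolic chaperonin CCT and prefoldin, which fold actin and tubulin, had 1 of 8 and 3 of 6 called, beside 53.9% of all tested genes. With median centring the order reversed, at 2 of 8 CCT genes, both lower, and 0 of 6 prefoldin genes. Of all 12388 tested genes 1542 were then higher and 2476 lower. The difference between the lists was not tested. With loess the CCT subunit that fell was Cct5 at a log2 ratio of -0.52 ± 0.42 (limma adjusted p = 0.0348), a call lost without replicate 2, 3 or 4. Of 6 prefoldin subunits 2 fell, Vbp1 at -0.95 ± 0.53 and Pfdn4 at -0.40 ± 0.10, and 1 rose, Pfdn5 at 0.73 ± 0.21 (0.18 at its dimmer probe); none of these 3 passed with median centring (adjusted p = 0.0728, 0.146 and 0.0796). Of 7 mitochondrial chaperones and proteases 2 fell, the disaggregase Clpb at -0.53 ± 0.25 and the HSP70 partner Grpel1 at -0.49 ± 0.18, and 1 rose, the iron-sulphur cochaperone Hscb at 0.43 ± 0.17. Another bright Grpel1 probe was at -0.10 ± 0.29 (limma adjusted p = 0.565) and a dimmer one at -0.47 ± 0.22 (0.0132). The dim second Clpb probe was at -0.07 ± 0.13 (0.602). With median centring Hscb was at 0.17 (adjusted p = 0.606). Among 6 other nucleotide exchange factors, Hspbp1 fell at -0.48 ± 0.39 and Bag4 rose at 0.26 ± 0.02. Both were near the threshold (limma adjusted p = 0.0376 and 0.0494) and lost without replicate 2, 3 or 4. Neither passed in the scanner software's ratios (0.0636 and 0.0611). With median centring Hspbp1 passed, at -0.76 (0.00807), and Bag4 did not (0.698). Their dimmer probes did not pass with loess, at -0.39 ± 0.45 for Hspbp1 (0.0972) and 0.20 ± 0.09 for Bag4 (0.128).

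Hsf1, the gene of heat shock factor 1, rose at a log2 ratio of 0.75 ± 0.15 (limma adjusted p = 0.00107), and Hsbp1, whose product binds the factor and restrains it, rose at 0.85 ± 0.29 (adjusted p = 0.00180). With median centring the brightest probes did not pass, at 0.46 for Hsf1 (adjusted p = 0.0782) and 0.35 for Hsbp1 (adjusted p = 0.350), but the dimmer Hsf1 probe did, at 0.63 (adjusted p = 0.0242), after 0.78 with loess (adjusted p = 0.00235). Hsf2 and Hsf4 did not pass, at -0.23 ± 0.09 and 0.01 ± 0.09 (adjusted p = 0.0863 and 0.962), though Hsf2 passed in several alternatives. It was at -0.27 without replicate 1 (adjusted p = 0.0174), at -0.38 with an offset of 10 (0.0335) and at -0.64 in the scanner software's ratios (0.0145), and it also passed with no filter on dim probes, array quality weights or a trended robust variance. The Hsf2 probe was dim, at the 8.8th percentile of intensity, with log2 levels of 6.50 to 6.97 over both channels. Hsf4 was at the 10.1th percentile. The other Hsf2 probe cleared background on 3 arrays in each channel and was not tested. Among partners of Bag3 in chaperone-assisted autophagy, 2 of 4 tested rose and 1 fell. Synpo2, also on that list, was not above background at either probe on any array and was not tested. Synpo, the actin-bundling synaptopodin, was at 3.12 ± 0.34 (adjusted p = 2.03e-05), with a second probe at 0.62. Flnc, the filamin C that the Bag3 complex takes to degradation, was at 1.69 ± 0.14 (adjusted p = 4.28e-05), and Sqstm1, the autophagy receptor p62, was at -1.10 ± 0.19 (adjusted p = 0.000272). Several smooth muscle markers were higher too: 7 of their 10 tested probes rose, against 26.4% of all tested probes, and none fell. The 7 were of Tagln, Acta2, Myl9 and Lmod1. Cnn1, Smtn and Myh11 did not pass, at 0.07, 0.08 and 0.13 (limma adjusted p = 0.644, 0.615 and 0.361). With median centring 5 of the probes were higher, against 11.2% of all probes, and none lower. Cnn1 was then at -0.48 ± 0.23, just short of a call (limma adjusted p = 0.0502). The log2 of the list's summed level was 19.07 to 19.15 in the channel labelled RapCA and 17.84 to 18.2 in the other. Tagln was at 2.13 and 2.41, and Acta2 at 0.54 to 1.23 over 3 probes, of which 2 turned to -0.09 and -0.24 with median centring. Endothelial markers had 1 probe higher and 2 lower of 3 tested, with summed log2 levels of 9.62 to 9.67 against 10.03 to 10.27. The epithelial list had summed levels of 8.5 to 8.6 against 9.06 to 9.17. These sums take in all 8 endothelial and 5 epithelial probes. Most of those were too dim to be tested, so background is a part of the sums. The tested epithelial probes were both of Krt8, which was not well above background on any array in the channel labelled RapCA. Immune markers had no call among 2 tested probes. The part of these markers in the ratios of Bag3, Cryab and the other members was not tested.

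**Figure D4:**
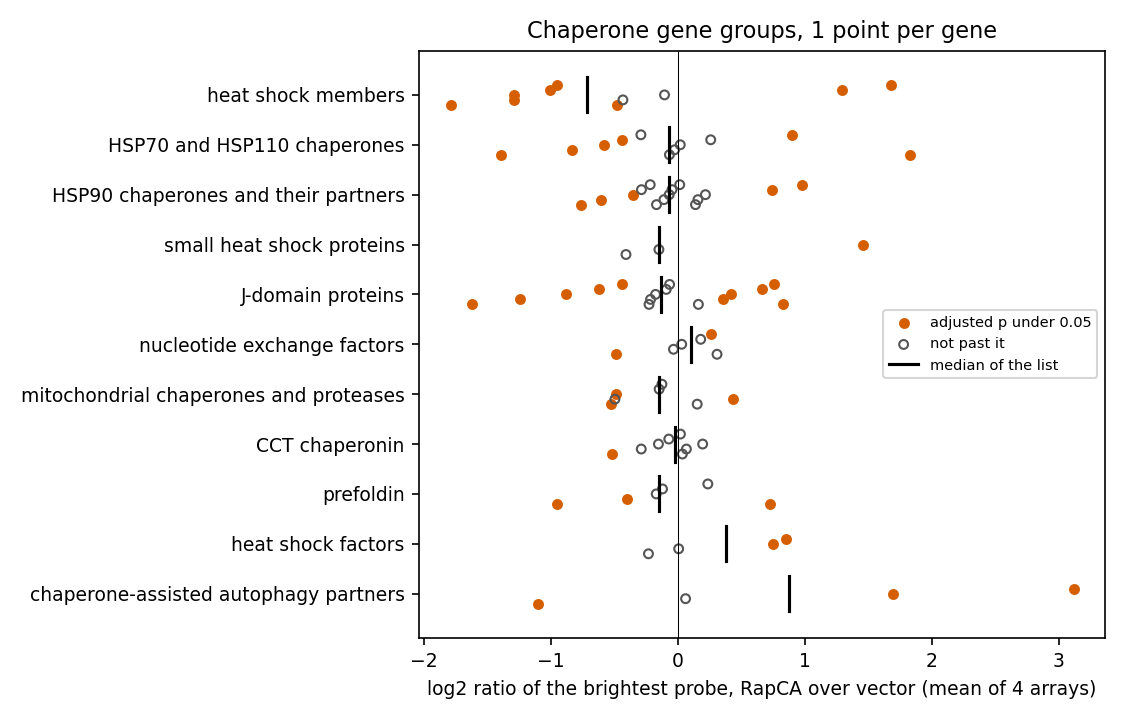
Log2 ratio of the brightest probe (x axis, mean of 4 arrays) for each tested gene of the heat shock members and of 10 other chaperone lists (rows); filled points passed an adjusted p of 0.05, open points did not, and bars mark list medians. The members' median lies at -0.72, with Bag3 and Cryab far above it, and the CCT genes lie between -0.52 and 0.20.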

How the data were processed

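Per the labels, the empty-vector RNA carried Cy5 and the RapCA RNA Cy3, and each of 4 arrays took a pair. Signals come from Agilent Feature Extraction. Its version is 10.7.3.1 according to the headers of the files, while the submitters' processing notes give 10.9. The intensity values analysed here, deposited by the authors, are median spot and local background signals with no normalization. The deposited log10 values, in the scanner files and the series' value table, give Cy5 over Cy3 after the software's own processing; they served as alternatives and differed from each other by at most 5e-05. No spot was saturated.

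Background was corrected with normexp (offset 50), ratios were normalized by loess within arrays with control spots at no weight, outlier-marked spots were dropped, and replicate spots were averaged per probe. Channel levels are after further quantile scaling of mean intensity between arrays. A probe was kept if 1 channel or both cleared background on every one of the 4 arrays, with ratios from 3 or more arrays. The log2 ratio was tested against 0 in limma (lmFit, eBayes) with Benjamini-Hochberg adjustment at 0.05, after a check of the script on simulated data. Accessions were turned into gene symbols through a RefSeq table, which named 64.8% of probes; the array files name another build, so no probe was placed. The number of arrays limits the precision.

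The members and lists were chosen with earlier results of these data known. Named were all members, up to 2 genes of each other list in each direction with the largest change among those called, the heat shock factors and Rap1a. A result that this rule names is not reported here. Alternatives covered an offset of 10, median centring, the software's ratios, the value table, filters, outlier spots, array weights, a trended robust variance, each array left out and 1 probe per gene. The software was R 4.3.3, limma 3.58.1, data.table (version 1.17.8), Python 3.11.15, pandas 2.3.3 and matplotlib 3.10.9.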

Additional observations from a re-analysis of the deposited data

How the results depend on the processing

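The tests were rerun under 14 alternatives. Hsp90aa1, Hspb1, Hsph1, Hspe1, Bag3, both Cryab probes and the second Dnajb1 probe kept their direction and passed in every alternative that tested them. The member probes called numbered 8 to 12 in all, with 3 higher wherever probes were the unit and 5 to 9 lower. Calls over all 23497 tested probes moved as well. Of the 14 member probes 12 were called with array quality weights and 11 with median centring, beside 17694 and 6546 of all probes. Reversed ratios were those of the second Hspa8 probe with median centring (-0.28) and of Hsf4 with median centring (-0.0441) and without replicate 2 or 4 (-0.0063 and -0.0207, in a range of -0.0207 to 0.0509 over arrays left out), none of which passed in any of these fits. All probes called numbered 6546 with median centring (2624 higher) and 17694 with array quality weights (8641 lower), and testing genes gave 6642 calls (3563 higher and 3079 lower), which counts fewer features. Other chaperone genes called higher numbered 8 of 80 with median centring. With array quality weights 59 of 80 were called, 35 of them lower, beside 17694 of 23497 probes called. Leaving out 1 array gave 7912 to 15739 probes called, 3526 to 7665 of them lower, and 21 to 54 other chaperone genes called, 8 to 31 of them lower. Apart from that count of genes, the cause of these shifts was not tested. With the single dye orientation and 1 slide for all arrays, neither dye nor slide could be examined. The tested ratios already pair both arms within each array, so no further block was fitted.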

Other observations

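Paralogues of the members, singled out after their values were seen, were not all called. Hsp90ab1, the constitutive cytosolic HSP90, had log2 ratios of -0.07 ± 0.50 and 0.03 ± 0.31 at its 2 probes (limma adjusted p = 0.786 and 0.895), beside -1.79 for Hsp90aa1. Replicate 1 had the highest ratio at both. The brighter probe was at 0.65, -0.16, -0.49 and -0.28 on replicates 1 to 4, the dimmer at 0.45, 0.06, -0.24 and -0.18. With median centring they were at -0.70 and -0.35 (limma adjusted p = 0.143 and 0.385). A fit without replicate 1 is not given for these paralogues. The Hsp90aa1 ratio lay below that of the brighter Hsp90ab1 probe by 1.30 to 2.50 log2 units on every array (exact two-sided sign-flip p = 0.125, the smallest that 4 arrays allow). The stress-inducible HSP70 genes Hspa1a and Hspa1b, near-identical copies whose signals may not be separable, ranged over 4 probes from -0.44 to 0.07, with 1 Hspa1a probe passing (adjusted p = 0.0154). Hspa9, the mitochondrial HSP70, did not pass at either probe, with -0.03 ± 0.75 and -0.58 ± 0.59, and replicate 1 again had the highest ratio at both, 1.02 and 0.10. On replicates 2 to 4 the ratios were -0.16, -0.24 and -0.73 at the brighter Hspa9 probe and -0.55, -0.54 and -1.34 at the other.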
